A study of Mus musculus with 5 samples.

Results

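The glucocorticoid receptor and the genes through which its activity is usually read were examined in CRC tumours of mice kept warm or cold. The set holds 8 genes chosen by symbol: the receptor itself (Nr3c1), the enzyme that makes its ligand inside cells (Hsd11b1) and 6 genes that the receptor induces in many tissues (Fkbp5, Tsc22d3, Sgk1, Zbtb16, Klf9 and Cebpd). Each of the 8 symbols had 1 entry among the 54113 named entries of the count table. All 8 entries were among the 16133 genes that passed the filter on low counts. The study's mouse CRC model implants MC-38 cells, a single colon adenocarcinoma line, into C57BL/6 mice, and the labels of the tumours give neither age nor sex. Sequenced RNA came from 3 warm tumours (hosts at 30 °C, the thermoneutral control) and 2 cold tumours (hosts at 4 °C), after 2 weeks at that temperature.

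The glucocorticoid receptor is a transcription factor that waits in the cytoplasm, bound to Hsp90 and its partner proteins, until a steroid such as corticosterone binds it. It then enters the nucleus, binds DNA as a dimer at sites built from inverted copies of a short motif, and raises or lowers the transcription of its targets. Secretion of its ligand by the adrenal gland follows the time of day and rises under stress, and lymphocytes and myeloid cells are among the cells that respond strongly.

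The receptor's recognition element was searched in promoter windows to show what it looks like in these genes. RefSeq windows on GRCm38.p6, from 250 bases before to 50 bases after a transcription start, were at hand for 5 of the 8 genes (Hsd11b1, Fkbp5, Tsc22d3, Sgk1 and Klf9, 12 windows in all), and not for Nr3c1, Zbtb16 and Cebpd. The full palindrome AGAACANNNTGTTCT, which reads the same on both strands, was found in 1 of these 12 windows, at a start of Sgk1 (chr10:21993701-21993715, 189 bases before the start). It occurs in 3 of 32851 windows of this length (0.00913%). The looser form GNACANNNTGTNC, which every full palindrome also matches, was present in the same window of Sgk1 and in no other window of the 5 genes, against 0.475% of the 32851 windows. The single hexamer AGAACA, from which the palindrome is built, was searched on both strands and was found in 4 of the 12 windows, 3 of Sgk1 and 1 of Tsc22d3, against 19% of the 32851 windows. Sgk1 had more of the 12 windows than any other of the 5 genes. One of its windows with the hexamer was that of the palindrome, which holds the hexamer by construction. The window of Sgk1 with the palindrome, the window of Tsc22d3 with a hexamer and the single window of Fkbp5, which holds none of the 3 motifs, are shown to compare the 3 targets, with matched letters in capitals.
Sgk1, chr10:21993640-21993939, plus strand: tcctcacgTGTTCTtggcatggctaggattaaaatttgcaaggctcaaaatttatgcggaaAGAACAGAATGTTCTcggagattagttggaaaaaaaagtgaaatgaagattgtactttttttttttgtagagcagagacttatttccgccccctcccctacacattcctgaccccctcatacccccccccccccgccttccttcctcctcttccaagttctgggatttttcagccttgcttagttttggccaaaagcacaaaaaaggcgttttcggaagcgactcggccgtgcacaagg
Tsc22d3, chrX:140600473-140600772, minus strand: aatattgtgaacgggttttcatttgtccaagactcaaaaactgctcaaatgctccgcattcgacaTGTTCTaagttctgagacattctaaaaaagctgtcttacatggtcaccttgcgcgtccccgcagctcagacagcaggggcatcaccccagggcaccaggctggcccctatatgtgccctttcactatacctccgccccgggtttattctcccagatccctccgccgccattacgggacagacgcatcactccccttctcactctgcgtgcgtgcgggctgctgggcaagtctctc
Fkbp5, chr17:28486100-28486399, minus strand: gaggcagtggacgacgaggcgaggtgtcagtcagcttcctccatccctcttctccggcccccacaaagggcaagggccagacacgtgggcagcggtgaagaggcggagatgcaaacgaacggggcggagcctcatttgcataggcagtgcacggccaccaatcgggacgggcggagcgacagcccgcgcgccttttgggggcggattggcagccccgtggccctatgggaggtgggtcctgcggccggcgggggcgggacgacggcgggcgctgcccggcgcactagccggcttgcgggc
A match of letters is a description of the window and says nothing about binding, and sites of the receptor often lie in introns or far from a start, outside these windows.

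The 5 libraries had from 16191708 to 20320525 counts. Levels are given in CPM, the counts of a gene per 1000000 counts of its library, and the comparison used CPM after TMM scaling (scaled CPM), which corrects for a few abundant genes filling a library. This mattered for 30 °C replicate 2, where 10 pancreatic acinar genes summed to 211172 CPM, so that the other genes of this library appear lower in plain CPM (TMM factor 0.738, against 1.03 to 1.13 in the other 4). In 4 °C replicate 2 these genes summed to 1963 CPM, and elsewhere to at most 70.3 CPM. Against the label of a colon carcinoma, the 10 epithelial and colon genes (6 above 3 counts in every library) summed to between 19.4 and 132 CPM. The highest sums were those of 30 °C replicate 2 (132 CPM) and 4 °C replicate 2 (92.9 CPM), where the acinar genes were highest too. Epcam had 7.91 to 11.4 CPM, Krt8 3.17 to 59.7, Krt18 0.860 to 37.7 and Cdh1 2.26 to 24.4 CPM. Krt20 and Cldn7 did not exceed 4.11 CPM. Krt19 and Cldn3 were at 0 in some libraries, and Vil1 and Cdx2 did not exceed 0.458 CPM. By contrast, B cell genes (8 of 8 above 3 counts in every library) summed to between 1268 and 3697 CPM. The largest class among these lists, apart from the acinar genes of 30 °C replicate 2, was the 8 erythroblast genes, at 13487 to 26092 CPM at 30 °C and 28918 to 35368 CPM at 4 °C, and these groups overlapped after scaling (11951 to 35365 against 26739 to 34268 CPM). Marker sums are in plain CPM unless called scaled. In such mixed tissue a lower level can come from fewer cells of a type or from less RNA per cell, and these cannot be told apart.

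None of the 8 genes differed between the temperatures past an adjusted p of 0.05 in the quasi-likelihood test of edgeR, as was the case for all 16133 genes tested (0.00% called). The DESeq2 Wald test called 0 of the 7 genes for which it gave an adjusted p (it gave none for Zbtb16), against 0.891% of all genes with one (111 of 12460). At an unadjusted p under 0.05 in edgeR the count was 0 of the 8 genes in either direction, against 6.76% of all genes, 2.58% higher and 4.17% lower at 4 °C (417 of 1090 genes were higher, and 558 of 1128 with upper-quartile scaling). Of the 8 genes, 5 had lower and 3 had higher fitted levels at 4 °C, against 50.7% of all genes higher. Their median log2 fold change was −0.049 (0.0064 over all genes tested), with a range from −0.54 for Klf9 to 0.70 for Tsc22d3. In TMM-scaled CPM the groups did not overlap for Hsd11b1, Tsc22d3 and Sgk1 (3 of 8 genes, against 23.3% of all genes). In plain CPM this held for Sgk1 alone (1 of 8, against 16.4%). Scaled means are given ± SD over the 3 warm and the 2 cold tumours, in this order. Intervals of counts are 95% Wilson intervals, which cover counting error alone because reads copied by PCR were not told apart from separate molecules.

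**Figure D1:**
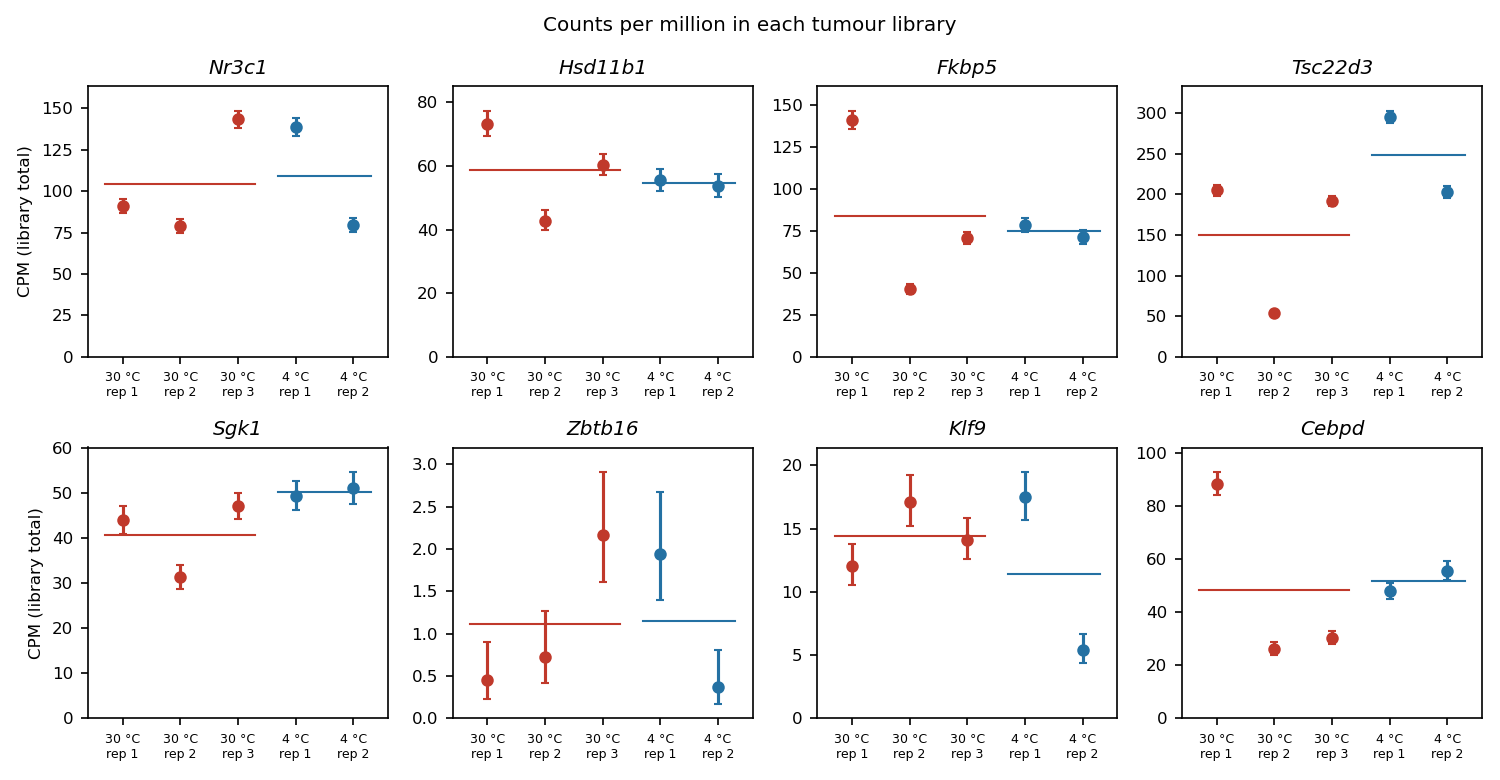
CPM of the library total (vertical axes, starting at 0) for the 8 genes in each of the 5 tumour libraries (horizontal axes), red for 30 °C and blue for 4 °C; bars are 95% Wilson intervals and lines are group means. Sgk1 is the only one of the 8 genes whose groups do not overlap in this unit, and Fkbp5 and Cebpd stand highest in 30 °C replicate 1, at 141 and 88.3 CPM.

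The receptor was transcribed in every tumour. Nr3c1 lies on the minus strand of chromosome 18 of GRCm38, from 39410545 to 39519421. It had 90.9, 79.0 and 143 CPM in replicates 1 to 3 at 30 °C and 138 and 79.5 CPM in replicates 1 and 2 at 4 °C, with counting intervals no wider than 5.47% of the value to either side. In plain CPM one library of each temperature was high and the rest were low, so the spread within each group was wider than the gap between their means. After scaling, the warm tumours were graded, at 84.6, 107 and 127 CPM, against 128 and 77.1 CPM in the cold ones. The scaled means were 106 ± 21.3 and 103 ± 36.1 CPM. The log2 fold change was −0.051 with a standard error of 0.28 (edgeR, adjusted p = 0.978), a fold of 0.965 with a 95% interval from 0.602 to 1.55. The direction was set by single libraries, since the log2 fold change lay between −0.46 and 0.26 when single tumours were omitted.

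The pattern of the receptor over the libraries was set beside that of genes of different exon length. Across tested genes with more than 8 kb of exon sequence (2470 genes), the median log2 level relative to the mean of each gene was 0.21 in 30 °C replicate 3 and 0.14 in 4 °C replicate 1, and −0.28 in 4 °C replicate 2. For genes under 2 kb (3480 genes) these medians were −0.15, −0.066 and 0.28. Genes of 4 to 8 kb (5425 genes) had medians of 0.069, 0.040 and −0.093 in the same 3 libraries. Nr3c1, with 7.68 kb of exon sequence, belongs to this class and stood at 0.31, 0.32 and −0.41. These values had the signs of the class medians but were larger in size. Fkbp5, with 9.47 kb of exon sequence, stood at −0.24, −0.033 and −0.10 there. The part of transcript length in the level of Nr3c1 was not tested. Taking the root mean square difference between patterns over the 5 libraries, with each gene set to its own mean, the genes nearest to Nr3c1 were Zfp715 (0.027 on the log2 scale), Clock (0.028) and Kdm4c (0.029). They were 3 of many, since 1861 of 16132 other genes lay within 0.2 of Nr3c1. These 1861 genes had a median exon length of 7.11 kb, compared with 3.94 kb over all tested genes.

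Hsd11b1 encodes the enzyme of the endoplasmic reticulum that turns inactive 11-dehydrocorticosterone into corticosterone, so that cells can raise their own ligand level. The gene lies on the minus strand of chromosome 1, from 193221634 to 193264075. Its levels were 73.3, 42.8 and 60.3 CPM at 30 °C and 55.4 and 53.7 CPM at 4 °C. The cold tumours lay inside the range of the warm ones in this unit, and just below all 3 of them after scaling, where 30 °C replicate 2 moved to 58.1 CPM and 30 °C replicate 3 to 53.5 CPM, next to 52.1 CPM in 4 °C replicate 2. The scaled means were 59.9 ± 7.50 and 51.7 ± 0.522 CPM, and the log2 fold change was −0.21 with a standard error of 0.18 (edgeR, adjusted p = 0.862). The 95% interval of the fold ran from 0.641 to 1.16. With each tumour left out the log2 fold change stayed below 0, between −0.29 and −0.11. Fibroblast and stroma genes, in whose cells Hsd11b1 is often found, were 10 of 10 above 3 counts in every library, none at 0. They summed to 1246, 445 and 635 CPM at 30 °C and to 717 and 1412 CPM at 4 °C. In plain CPM, Dcn, Lum, Pdgfra and Pdgfrb were highest in 30 °C replicate 1, as was Hsd11b1. Col1a1, Col1a2, Col3a1, Thy1 and Mfap5 were highest in 4 °C replicate 2, and Dpt in 4 °C replicate 1. Of 8 adipocyte genes, 3 were above 3 counts in every library and Lep was at 0 in each. The part of stromal or fat cells in the level of Hsd11b1 was not tested.

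Fkbp5 encodes FKBP51, a co-chaperone that lowers the affinity of the receptor for its ligand and closes a short feedback loop, and it is among the most widely induced targets. It lies on chromosome 17, from 28399094 to 28517527. Fkbp5 had 141, 40.2 and 70.6 CPM at 30 °C and 78.3 and 71.1 CPM at 4 °C. The warm tumours held both the highest and the lowest value, 3.50-fold apart, and the cold tumours lay close together between them. Scaled means were 82.8 ± 42.0 and 70.7 ± 2.51 CPM, and edgeR fitted a log2 fold change of −0.23 with a standard error of 0.39 (adjusted p = 0.928). The 95% interval of the fold ran from 0.445 to 1.64. Without 30 °C replicate 1 the log2 fold change was 0.27 in place of −0.23, so its sign rested on this library. Neutrophil genes (10 of 10 above 3 counts in every library, none at 0) summed to 13271 CPM in that library, to 6198 and 3272 CPM in the other warm tumours and to 2663 and 4095 CPM in the cold ones. The macrophage genes (10 of 10 above 3 counts in every library) also had their highest sum there, at 3777 CPM. Elsewhere they summed to 1544 to 3432 CPM. A large part of that highest sum was Marco, at 1071 CPM there against 72.5 to 215 CPM elsewhere. Adgre1, Cd68 and Spic were also highest in that library, whereas Csf1r, Mrc1, Vcam1, C1qa, C1qb and C1qc were each higher in another library. The part of neutrophils or macrophages in the level of Fkbp5 was not tested. The genes nearest in pattern to Fkbp5 included Ikbke (0.077 on the log2 scale) and C1qtnf1 (0.085), and 74 genes lay within 0.2.

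Cebpd encodes a transcription factor that is induced early by glucocorticoids and by inflammatory signals, and among the other 7 genes it followed Fkbp5 most closely (root mean square difference 0.28). Its levels were 88.3, 26.3 and 30.5 CPM at 30 °C and 47.9 and 55.5 CPM at 4 °C. As for Fkbp5, 30 °C replicate 1 stood above all other libraries, and the cold tumours lay between it and the remaining warm ones. The scaled means were 48.3 ± 29.6 and 49.1 ± 6.75 CPM, and the fitted log2 fold change was 0.022 with a standard error of 0.47 (edgeR, adjusted p = 0.992). Leaving out 30 °C replicate 1 gave 0.65 and leaving out 30 °C replicate 3 gave −0.27. Cebpd lies on chromosome 16 from 15887286 to 15891031, and 15% of its exon sequence (562 bases) overlaps Spidr on the opposite strand. The strand setting of the counting is not given in the sources used here, so reads of this stretch cannot be assigned to either gene with certainty.

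Tsc22d3 encodes GILZ, a leucine zipper protein that restrains NF-kB and AP-1 and carries part of the anti-inflammatory action of glucocorticoids in lymphocytes and macrophages. The gene lies on the X chromosome, from 140539528 to 140600659. It had 205, 54.1 and 192 CPM at 30 °C and 295 and 203 CPM at 4 °C. One warm tumour, replicate 2, was far below the rest, and the remaining warm tumours reached the level of the lower cold tumour. After scaling, 30 °C replicate 2 remained the lowest, at 73.4 CPM, and the groups were just apart, with 191 CPM in 30 °C replicate 1 and 197 CPM in 4 °C replicate 2. The scaled means were 145 ± 62.8 and 235 ± 54.1 CPM, a 1.62-fold difference with a 95% interval from 0.825 to 3.19. The log2 fold change of 0.70 was the highest of the 8 genes, with a standard error of 0.40, and did not pass the test (edgeR, adjusted p = 0.804). It was 0.37 without 30 °C replicate 2, which carried the acinar genes, and 0.44 without 4 °C replicate 1. T cell genes (8 of 8 above 3 counts in every library, none at 0) summed to 274, 220 and 454 CPM at 30 °C and to 609 and 619 CPM at 4 °C. B cell genes summed to 1291, 1268 and 3414 CPM at 30 °C and to 3697 and 3129 CPM at 4 °C. Both lists were lowest in 30 °C replicate 2 in plain CPM, but after scaling they were lowest in 30 °C replicate 1, with T cell genes at 254 CPM against 298 in 30 °C replicate 2 and B cell genes at 1200 against 1719 CPM, while Tsc22d3 remained lowest in 30 °C replicate 2. The part of lymphocytes in the level of Tsc22d3 was not tested.

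Sgk1 encodes a serine/threonine kinase related to Akt that is induced within minutes to hours of hormone exposure and acts on ion transport and cell survival. It lies on chromosome 10, from 21882184 to 21999903. Its levels were the most even of the set, at 44.0, 31.3 and 47.0 CPM at 30 °C and 49.3 and 51.0 CPM at 4 °C. Both cold tumours stood above all 3 warm tumours, in plain CPM and after scaling. The scaled means were 41.7 ± 0.769 and 47.6 ± 2.71 CPM, a 1.14-fold difference with an interval from 0.878 to 1.48. The log2 fold change was 0.19 with a standard error of 0.16 (edgeR, adjusted p = 0.861) and lay between 0.12 and 0.25 with each tumour left out. The nearest libraries of the groups were 4 °C replicate 1, at 45.7 scaled CPM, and 30 °C replicate 2, at 42.5, and the counting intervals of these libraries reached 6.47% and 8.63% to either side, so these intervals overlapped.

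Klf9 encodes a zinc finger transcription factor whose induction by glucocorticoids is direct and which restrains proliferation in several cell types. It lies on chromosome 19, from 23141226 to 23168134. Klf9 had 12.1, 17.1 and 14.1 CPM at 30 °C and 17.5 and 5.37 CPM at 4 °C. The cold tumours held the highest and the lowest value, and the warm tumours lay between them. After scaling, 30 °C replicate 2 was the highest, at 23.2 CPM, and 4 °C replicate 2 remained the lowest, at 5.21 CPM. The scaled means were 15.7 ± 6.59 and 10.7 ± 7.74 CPM, and the log2 fold change was −0.54 with an equal standard error of 0.54 (edgeR, adjusted p = 0.875). The interval of the fold ran from 0.277 to 1.70. Without 4 °C replicate 2 the log2 fold change was 0.031, and without 4 °C replicate 1 it was −1.58, so the value was decided by which cold tumour entered.

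Zbtb16 encodes PLZF, a transcription factor that is strongly induced by glucocorticoids in many tissues and that also directs the development of NKT and innate lymphoid cells. It lies on chromosome 9, from 48654297 to 48836222. It was barely detected, with 8, 12 and 44 counts at 30 °C and 36 and 6 counts at 4 °C, which is 0.458, 0.726 and 2.17 CPM against 1.93 and 0.371 CPM. The interval of the lowest library ran from 0.170 to 0.809 CPM, and that of the highest from 1.61 to 2.91 CPM. One library of each temperature was high, 30 °C replicate 3 and 4 °C replicate 1, and these were the same libraries in which Nr3c1 was high. Scaled means were 1.11 ± 0.756 and 1.07 ± 1.01 CPM. The log2 fold change was −0.047 with a standard error of 0.85 (edgeR, adjusted p = 0.992). The interval of the fold ran from 0.235 to 3.98, and the log2 fold change lay between −1.62 and 0.66 with each tumour left out. Genes of NK, NKT and innate lymphoid cells (10 of 10 above 3 counts in every library, none at 0) were summed. The sums were 205, 126 and 233 CPM at 30 °C and 240 and 233 CPM at 4 °C. Id2 alone gave 148, 62.7 and 91.8 CPM of these at 30 °C and 122 and 129 CPM at 4 °C. In plain CPM, Klrb1c, Ncr1, Klrk1 and Tbx21 were highest in 30 °C replicate 3. The remaining genes (Klrd1, Xcl1, Eomes, Rora and Gata3) were highest in a cold tumour. The part of these cells in the level of Zbtb16 was not tested.

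**Figure D2:**
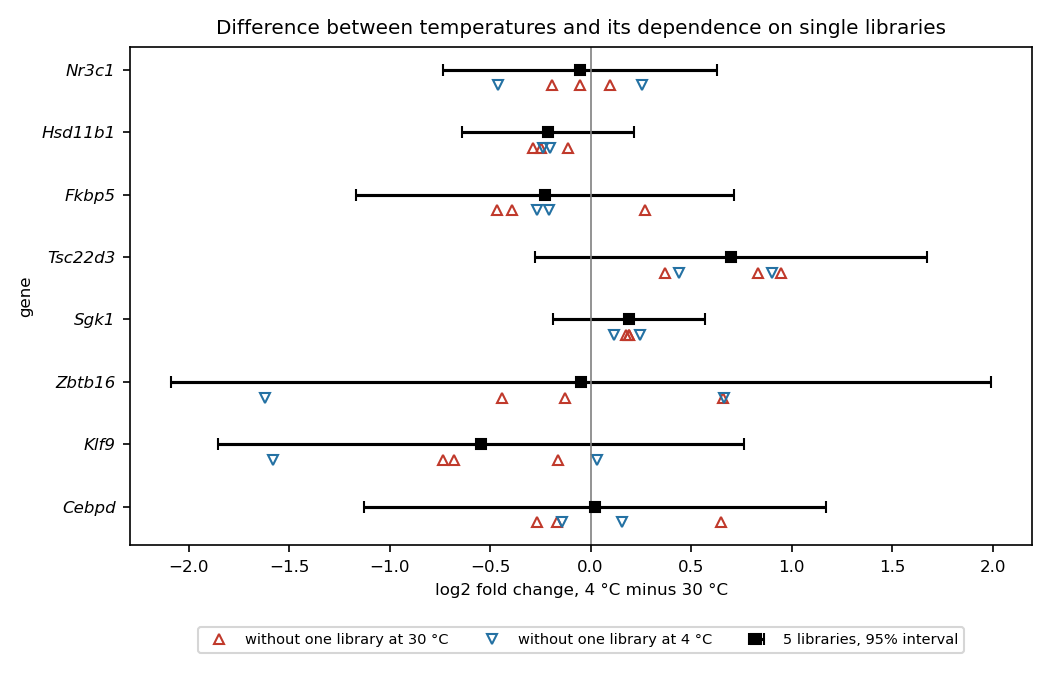
Log2 fold change of the 8 genes between 4 °C and 30 °C (horizontal axis, above 0 where 4 °C is higher), as fitted in all 5 libraries with its 95% interval (black squares and bars) and with single libraries left out (open triangles, upward for a library at 30 °C and downward for one at 4 °C). Each black interval crosses 0. The triangles of Hsd11b1, Tsc22d3 and Sgk1 stay on one side of 0, and those of Nr3c1, Fkbp5, Zbtb16, Klf9 and Cebpd fall on both.

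The genes did not share one order of libraries. In scaled log2 CPM, the libraries spanned 0.27 for Sgk1, 0.41 for Hsd11b1 and 0.73 for Nr3c1, against 1.26 for Fkbp5, 1.60 for Cebpd, 1.90 for Tsc22d3 and over 2 for Zbtb16 (2.11) and Klf9 (2.13). Fkbp5, Hsd11b1 and Cebpd were highest in 30 °C replicate 1, Nr3c1 and Tsc22d3 in 4 °C replicate 1, Klf9 in 30 °C replicate 2, Zbtb16 in 30 °C replicate 3 and Sgk1 in 4 °C replicate 2. Of the 28 pairs, Hsd11b1 and Sgk1 were the most alike (0.23), both being nearly level, followed by Fkbp5 and Cebpd (0.28). The least alike were Zbtb16 and Cebpd (1.35), Fkbp5 and Zbtb16 (1.16) and Tsc22d3 and Klf9 (1.16). Among the induced targets, Klf9 was highest where Tsc22d3 was lowest, in 30 °C replicate 2, at 0.92 above and 1.18 below the mean of each gene. That library carried the acinar genes, and in plain CPM Klf9 was highest in 4 °C replicate 1 (17.5 CPM, against 17.1 CPM in 30 °C replicate 2).

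**Figure D3:**
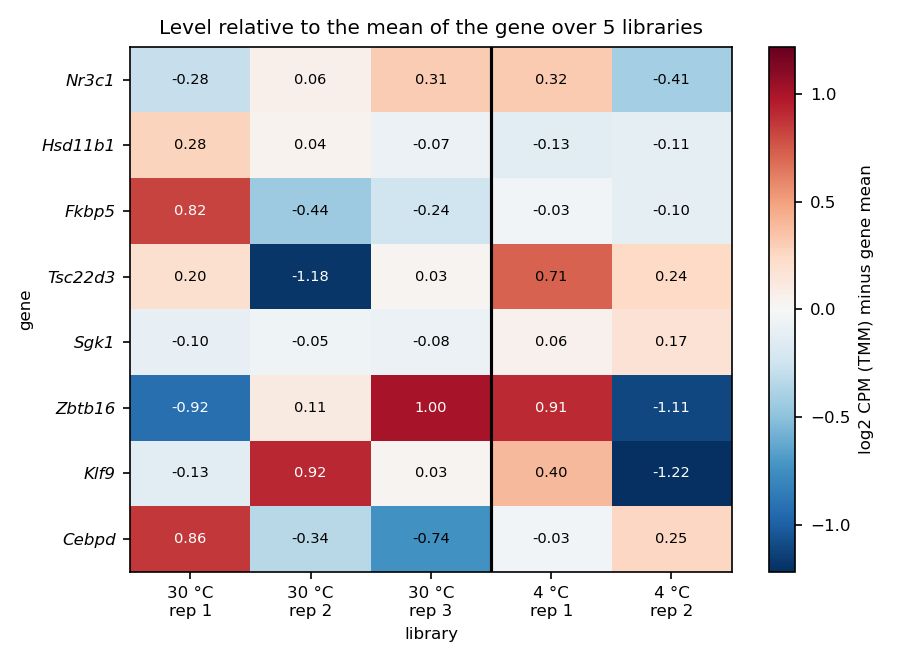
Scaled log2 CPM of each of the 8 genes (rows) in each library (columns, with a line between 30 °C and 4 °C), as the difference from the mean of the gene over the 5 libraries, red above and blue below. Fkbp5 and Cebpd share a maximum in 30 °C replicate 1 (0.82 and 0.86), and Nr3c1 and Zbtb16 are both high in 30 °C replicate 3 and 4 °C replicate 1.

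Levels of different genes were compared per kilobase of exon sequence, summed over the exons of all annotated transcripts. In this unit Tsc22d3 was the most abundant of the 8 genes in 5 of 5 libraries, with a mean over the libraries of 43.8 CPM per kb, though its range overlapped that of the next gene because of 12.5 CPM per kb in 30 °C replicate 2. Nr3c1 (13.8 CPM per kb), Hsd11b1 (13.4) and Cebpd (13.3) followed with ranges that overlap. Nr3c1 stood above Hsd11b1, and Hsd11b1 above Cebpd, in 3 of 5 libraries each, and Cebpd stood above Sgk1 in 4 of 5. Sgk1 (9.08) and Fkbp5 (8.47) also overlapped in range, with Sgk1 higher in 4 of 5. Klf9 (2.75) was below Fkbp5, and Zbtb16 (0.214) below Klf9, in 5 of 5 libraries without overlap. The order rests on the full set of annotated exons, and a gene read mainly from a short isoform would stand higher.

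**Figure D4:**
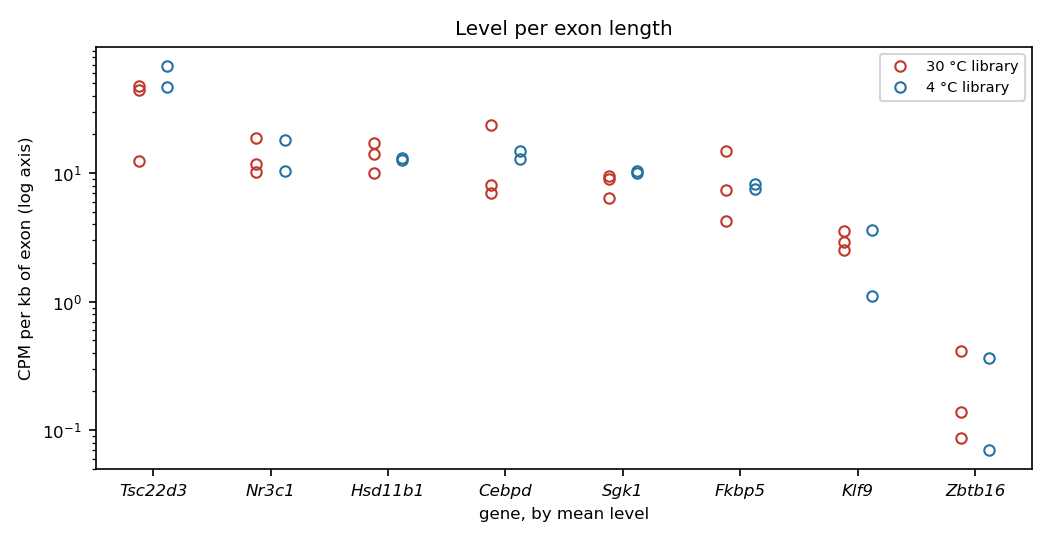
Level of the 8 genes in CPM per kb of exon sequence (vertical log axis), with genes ordered by their mean and each open circle standing for 1 library, red at 30 °C and blue at 4 °C. Tsc22d3 leads, with a mean of 43.8, Klf9 and Zbtb16 lie apart at 2.75 and 0.214, and the range of each of the other genes overlaps that of a neighbour.

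The wider pathway was read from lists that name the ligand's metabolism and transport, the chaperones that hold the receptor, its coregulators, further induced targets and inflammatory genes that the receptor represses. Together, 90 genes of the 5 lists were tested. In each list 0 genes passed an adjusted p of 0.05, by edgeR or, where it gave one, by DESeq2. At an unadjusted p under 0.05 in edgeR, 4 of the 90 genes (4.44%) differed, against 6.76% of all genes. Of these, 1 was higher at 4 °C (Cxcl10) and 3 were lower (Kat2b, Sele and Mmp9), and they are named here after their values were seen. Of 13 genes of ligand metabolism and transport, 9 could be tested, with a median log2 fold change of 0.049. Hsd11b2, whose enzyme inactivates the ligand, was close to the limit of detection, with scaled means of 1.29 ± 0.0582 and 0.853 ± 0.573 CPM. Nr3c2, the mineralocorticoid receptor, which binds the same ligand, stood at 2.91 ± 0.219 and 2.44 ± 0.909 CPM. H6pd, which supplies the NADPH used by the enzyme of Hsd11b1, had 60.2 ± 15.7 and 54.8 ± 8.91 CPM. The ranges of these 3 genes overlapped between the temperatures. The median of the list changed sign with single libraries, at 0.31 without 30 °C replicate 3, −0.018 without 30 °C replicate 2 and −0.093 without 4 °C replicate 1.

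All 15 chaperone genes were tested, and 12 of them had higher fitted levels at 4 °C, with a median log2 fold change of 0.12, against 50.7% of all genes. Hsp90ab1, a main Hsp90 form, had scaled means of 1968 ± 169 and 2124 ± 275 CPM. Fkbp4, which encodes FKBP52, the co-chaperone that takes the place of FKBP51 and helps the receptor to the nucleus, stood at 202 ± 21.1 and 220 ± 2.47 CPM. Ptges3, which encodes p23, stood at 135 ± 26.5 and 152 ± 8.49 CPM. The groups of Fkbp4 did not overlap, with the nearest libraries at 217.3 CPM in 30 °C replicate 2 and 217.8 CPM in 4 °C replicate 2, and its log2 fold change was 0.12 with a standard error of 0.17. Those of Hsp90ab1 and Ptges3 overlapped. Of 18 coregulators, 12 had lower and 6 had higher fitted levels at 4 °C, with a median of −0.11 (50.7% of all genes were higher). This median was −0.42 without 4 °C replicate 1, and it turned to 0.062 without 4 °C replicate 2 and to 0.028 without 30 °C replicate 3. Ncoa2, a coactivator that binds the receptor, had 68.8 ± 22.7 and 62.5 ± 28.8 CPM, and the corepressor gene Ncor1 had 190 ± 48.6 and 155 ± 69.4 CPM. Both were highest in 30 °C replicate 3 and 4 °C replicate 1, as was Nr3c1.

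Of 32 further induced targets, 30 were tested, 15 with higher and 15 with lower fitted levels at 4 °C (median 0.030). The sign of this median rested on single libraries too, since it was −0.059 without 30 °C replicate 2, −0.045 without 4 °C replicate 1 and 0.18 without 30 °C replicate 1, and it was −0.066 by DESeq2. Per1, a clock gene that the receptor also induces, had scaled values of 54.6, 18.5 and 29.1 CPM at 30 °C and 37.1 and 20.5 CPM at 4 °C. Like Fkbp5, it was highest in 30 °C replicate 1 and lowest in 30 °C replicate 2. Dusp1, the phosphatase that shuts off p38 and JNK, had 76.2 ± 26.0 and 82.9 ± 20.7 CPM, and Errfi1, an inhibitor of the EGF receptor, had 29.4 ± 23.6 and 44.6 ± 11.6 CPM. Ddit4, an inhibitor of mTOR signalling, had 242, 76.5 and 195 CPM at 30 °C and 304 and 172 CPM at 4 °C. As for Tsc22d3, its lowest level was in 30 °C replicate 2 and its highest in 4 °C replicate 1. The inhibitor of NF-kB Nfkbia had 131 ± 32.7 and 181 ± 21.2 CPM without overlap, and the log2 fold change was 0.46 with a standard error of 0.25 (edgeR, adjusted p = 0.786). Zfp36, which destabilises cytokine mRNA, had 90.3 ± 24.8 and 121 ± 36.4 CPM with overlap.

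Among targets in lymphocytes, Il7r, the receptor for interleukin 7, had 22.8 ± 3.39 and 33.4 ± 10.3 CPM (log2 fold change 0.55, edgeR adjusted p = 0.756). Its groups were just apart after scaling, with 26.0 CPM in 30 °C replicate 3 and 26.1 CPM in 4 °C replicate 2. In plain CPM they overlapped, at 29.3 and 26.9 CPM in these libraries. The chemokine receptor gene Cxcr4 had 122 ± 32.2 and 153 ± 40.4 CPM. The metal-binding proteins Mt1 and Mt2 had the same order of libraries, with Mt1 at 93.0, 183 and 31.2 CPM at 30 °C and 28.7 and 71.2 CPM at 4 °C, and Mt2 at 63.9, 101 and 15.5 against 13.6 and 38.8 CPM. Both were highest in 30 °C replicate 2 and lowest in 4 °C replicate 1, where Tsc22d3 was lowest and highest, respectively. Anxa1, an anti-inflammatory protein abundant in neutrophils, had 571, 330 and 128 CPM at 30 °C and 116 and 255 CPM at 4 °C. Cd163, the haptoglobin-haemoglobin scavenger receptor of macrophages, had 40.4 ± 21.4 and 30.8 ± 2.19 CPM, and Pdk4, a kinase that restrains pyruvate oxidation, had 7.99 ± 3.55 and 14.4 ± 9.40 CPM.

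Of 20 inflammatory genes that the receptor represses, 18 were tested, 9 with higher and 9 with lower fitted levels (median −0.0042). With single libraries left out this median ran from −0.45 without 4 °C replicate 2, or −0.18 without 30 °C replicate 2, to 0.15 without 30 °C replicate 1. Il1b had 49.5 ± 12.4 and 38.7 ± 13.2 CPM. Tnf had 4.36 ± 3.29 and 3.98 ± 1.06 CPM, and the chemokine gene Ccl2 had 1.87 ± 1.86 and 2.38 ± 1.97 CPM. Ptgs2, which encodes the inducible cyclooxygenase, had 1.12 ± 0.768 and 0.798 ± 0.566 CPM. The ranges of these 4 genes overlapped between the temperatures.

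**Figure D5:**
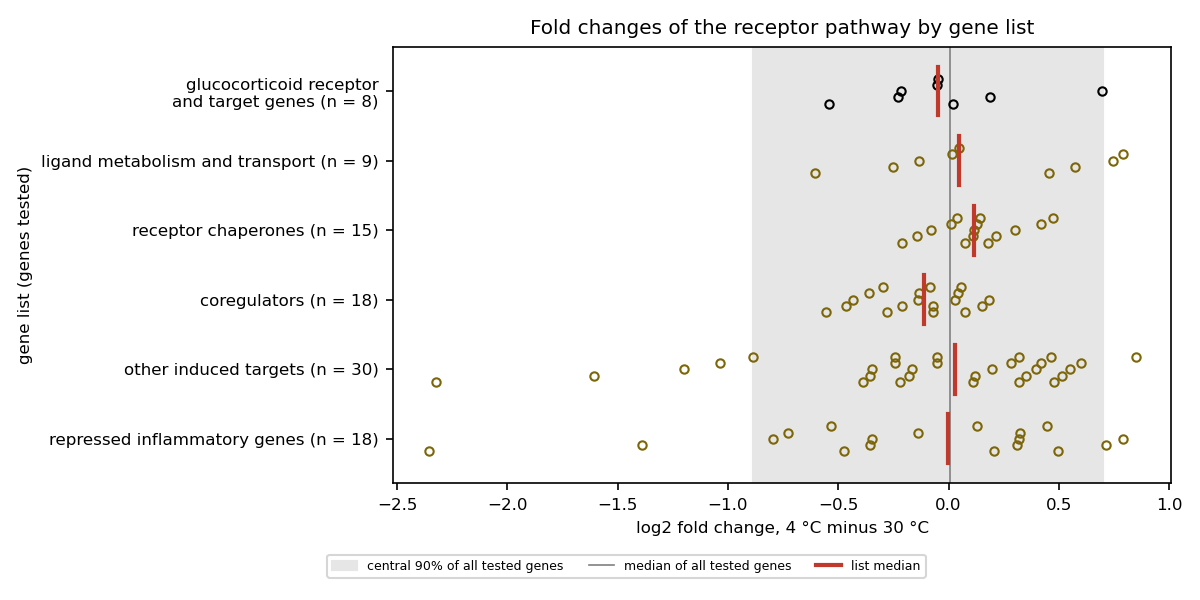
Log2 fold change between 4 °C and 30 °C (horizontal axis) of each tested gene (open circles) in the receptor set and in the 5 lists of its pathway (rows), with list medians in red. The grey band holds the central 90% of all tested genes, from −0.88 to 0.70, and the 8 genes of the receptor set lie inside it.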

How the data were processed

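RNA from 5 tumours was made into libraries with the TruSeq RNA kit. The deposited values are whole-number counts per gene and were taken as raw. The paper's methods name featureCounts and Gencode vM19 for the counting by the authors, whereas the submitters' processing notes name RSEM, with fastp, HISAT and the build GRCm38, so which tool made the counts is unsettled. How strand and multi-mapping reads were handled is not given in the sources used here. Libraries held 17484355, 16534487 and 20320525 counts at 30 °C and 18613577 and 16191708 at 4 °C, without 333 unnamed entries (at most 0.0170% of a library). Of several entries with 1 symbol (97 symbols), the most abundant was taken under it. The study describes the tumours as biological samples, and no batch is given.

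Low counts were filtered with filterByExpr and libraries scaled by TMM (edgeR 4.0.16, R 4.3.3). Temperatures were compared by the robust quasi-likelihood F-test without covariates, with Benjamini-Hochberg adjustment over 16133 genes at 0.05. Log2 CPM used a prior count of 2. The floor was 3 counts (0.148 to 0.185 CPM). Coordinates and exon lengths are from GENCODE M21 on GRCm38, a later release than that used for counting. The genes, lists and tests were chosen with earlier results of these data known. Genes named from the pathway lists were fixed by symbol, beside the 3 genes nearest in pattern to Nr3c1 and to Fkbp5, of which 1 is not reported here. Alternatives were upper-quartile and RLE scaling, the DESeq2 Wald test (1.42.0), no filter or at least 10 counts in every tumour, a replicate block, no robust estimation, removal of acinar genes, a threshold of 0.1 and each tumour left out. The fits were tested on simulated counts.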

Additional observations from a re-analysis of the deposited data

How the results depend on the processing

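None of the 8 genes was called under any of the 13 alternative fits, of which the DESeq2 Wald test and the minimum of 10 counts in every tumour gave no adjusted p for Zbtb16, and a threshold of 0.1 on the adjusted p also called 0 of all genes tested. Over all genes, the DESeq2 Wald test called 111 and the replicate block called 44 in place of 0, and the other 11 fits called 0; the cause was not tested. At an unadjusted p under 0.05, edgeR had 1090 genes, 417 of them higher at 4 °C, and 558 of 1128 were higher with upper-quartile scaling. No scaling changed the direction of any of the 8 genes. Hsd11b1, Tsc22d3 and Sgk1 kept their direction under each of the 13 fits (log2 fold changes from −0.29 to −0.11, from 0.37 to 0.97 and from 0.12 to 0.25), and the others did not. Under the replicate block Nr3c1 had 0.063, Zbtb16 0.41 and Cebpd −0.15. With single tumours left out, the log2 fold change ran from −0.46 to 0.26 for Nr3c1, from −0.47 to 0.27 for Fkbp5, from −1.62 to 0.66 for Zbtb16, from −1.58 to 0.031 for Klf9 and from −0.27 to 0.65 for Cebpd. The turned values were 0.10 (without 30 °C replicate 3) and 0.26 (without 4 °C replicate 2) for Nr3c1, 0.66 in both of these fits for Zbtb16, 0.27 for Fkbp5 (without 30 °C replicate 1), 0.031 for Klf9 (without 4 °C replicate 2), and −0.17, −0.27 and −0.14 for Cebpd (without 30 °C replicate 2, 30 °C replicate 3 and 4 °C replicate 2). Where a cold tumour was left out, the remaining one was assumed to vary like the warm tumours. The unadjusted p was under 0.05 for Tsc22d3 with the block, for Cebpd without 30 °C replicate 1 and for Klf9 without 4 °C replicate 1, with adjusted p of 0.54, 0.80 and 0.62 from edgeR. The smallest adjusted p of any of the 8 genes over the alternatives was 0.54.

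The replicate numbers are not stated to pair the tumours, so the block was not used for the values above. Deviations from the group means correlated between tumours of the same number at −0.25 for number 1 and 0.26 for number 2. Those of 30 °C replicate 3 and 4 °C replicate 1 correlated at 0.62. The deviations of 2 cold tumours from their own mean are exact opposites, so each warm tumour gives equal and opposite values with them. These correlations therefore cannot decide whether the numbers pair the tumours. Depth limited Zbtb16 most, whose counts of 6 to 44 give intervals of up to 86.2% of the value to either side, against at most 21.1% for the other 7 genes.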

Other observations

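Some genes of the pathway lists were singled out after their values had been seen. The lowest fitted fold changes were those of Sele, the endothelial selectin, and Il1r2, the decoy receptor for interleukin 1. Sele had 0.745, 0.493 and 1.66 scaled CPM at 30 °C and 0.249 and 0.120 CPM at 4 °C, without overlap (log2 fold change −2.36 with a standard error of 0.77, edgeR adjusted p = 0.692). Sele was close to the limit of detection, and in 4 °C replicate 2 it was below the floor of that library (0.185 CPM before scaling). The fold change of Sele and its lack of overlap therefore rest on few counts. Il1r2 had 55.4, 7.39 and 5.33 CPM at 30 °C and 3.58 and 5.51 CPM at 4 °C, so that its fold change of −2.32 came with a single high library, 30 °C replicate 1, and the groups overlapped. Lcn2, which encodes lipocalin 2 and is abundant in neutrophils, had 1060, 454 and 152 CPM against 124 and 241 CPM. It was highest in the library in which Fkbp5 and Cebpd were highest too. Among the coregulators, Kat2b, which encodes the acetyltransferase PCAF, had 48.6, 53.6 and 45.8 CPM at 30 °C and 37.2 and 29.8 CPM at 4 °C, without overlap (log2 fold change −0.56 with a standard error of 0.19, edgeR adjusted p = 0.702). Mmp9, a matrix metalloproteinase stored in neutrophils, had 287, 123 and 104 CPM at 30 °C and 49.5 and 81.5 CPM at 4 °C (log2 fold change −1.39 with a standard error of 0.50, edgeR adjusted p = 0.709). Cxcl10, a chemokine induced by interferons, had 27.7, 16.6 and 25.7 CPM against 36.1 and 44.8 CPM, the reverse order of the groups (log2 fold change 0.79 with a standard error of 0.26, edgeR adjusted p = 0.694).

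In promoter windows, the looser element GNACANNNTGTNC was present in 2 of 36 windows of the further induced targets, those of Mt1 and Txnip, and in 0 of 14 windows of the repressed inflammatory genes. The hexamer AGAACA was present in 3 of the 36 and 0 of the 14 windows. It was present in 4 of the 12 windows of the receptor set, 3 of which belong to Sgk1, the gene with the most windows. Over all 32851 windows the shares were 0.475% for the looser element and 19% for the hexamer.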
